A study of Mus musculus with 4 samples.

Results

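The Siglecs are cell surface lectins that bind sialic acid, the acidic sugar that caps many glycan chains. Of the mouse family, 7 genes were described here, namely Siglece, Siglecg, Siglech, Siglec1, Cd22, Cd33 and Mag. They were taken by symbol from a count table of 28440 rows, 24480 of which could be given a symbol, and all 7 were found. The family was selected on the CPM rank of Siglece, whose row was the most abundant in every tumour, and the other 6 genes by family name. The level and rank of Siglece are therefore given below as a description.

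Most Siglecs sit on leukocytes. An outer immunoglobulin domain holds the sialic acid, and in the inhibitory members a tail with tyrosine motifs recruits the phosphatases encoded by Ptpn6 and Ptpn11 and so dampens activating receptors. Siglech instead signals through the adaptor encoded by Tyrobp, Siglec1 has no such inhibitory motif and works mainly in adhesion, and Mag lies on the myelin sheath. In tumours, sialic acid on cancer cells is known as a ligand of inhibitory myeloid Siglecs such as mouse Siglece.

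The samples were 4 mammary gland tumours, numbered 1 to 4, of mice of 1 genotype, MMTV-R26Met. In this model the MMTV promoter drives Cre in the mammary epithelium, which switches on a Met transgene at the Rosa26 locus. No normal gland, untreated or control tissue was among the samples, and no treatment or age is given. The labels leave unstated if each tumour had its own mouse, so the 4 tumours may not be independent animals. The spread between them may also in part be technical. Poly-A RNA of bulk tissue was sequenced as paired reads.

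The libraries held 35220504 to 42809015 counts. Values are CPM, counts scaled to a common library size with a correction for composition, and 3 counts, the one-sided 95% limit of a count of 0, correspond to 0.0708 to 0.0868 CPM. Epithelial markers were present in all tumours, with 2661 to 4124 CPM summed over 7 genes led by Krt8. No library was a copy of another, since every pair differed far beyond counting error (chi-square divided by its degrees of freedom, 142 to 415). In bulk tissue, fewer cells of a type and less RNA per cell cannot be told apart.

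Siglece (Entrez gene 83382) lies on the minus strand of chr7:43648882-43672044 (GRCm38.p6, RefSeq). Its closest relatives among the family matter for its count, since reads from a shared stretch could be assigned to the wrong gene. The 60 coding bases of Siglece most like Cd33 lie in exon 2 at chr7:43659262-43659321 on the minus strand, in the GENCODE M21 transcript Siglece-201. They are shown in lower case with the best matching 60 coding bases of Cd33, Siglech, the related gene Siglecf and Siglecg, whose mismatches to Siglece are in capitals.
Siglece: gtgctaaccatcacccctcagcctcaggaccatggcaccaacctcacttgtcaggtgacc
Cd33: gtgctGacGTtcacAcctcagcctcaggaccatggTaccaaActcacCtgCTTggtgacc
Siglech: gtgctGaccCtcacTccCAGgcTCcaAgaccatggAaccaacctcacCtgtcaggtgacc
Siglecf: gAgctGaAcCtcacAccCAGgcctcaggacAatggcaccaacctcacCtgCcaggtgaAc
Siglecg: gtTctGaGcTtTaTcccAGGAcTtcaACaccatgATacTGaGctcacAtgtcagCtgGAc
Cd33 matched Siglece at 50 of the 60 bases, Siglech at 49, Siglecf at 48 and Siglecg at 38. Over all ungapped windows of this length, not only the one shown, Siglecg had at most 45 identical bases. On that measure Siglec1, Cd22 and Mag had at most 36, 35 and 34. No stretch of 50 bases of Siglece-201 occurred in a transcript of another gene, out of 1800 stretches. Of 1820 stretches of 30 bases, 26 (1.43%) occurred in transcripts of 76 other genes. All 26 lay between bases 1705 and 1828 of the transcript, beyond the end of the coding sequence at base 1430. Only transcripts of GENCODE M21 were searched. Parts of the RefSeq gene outside Siglece-201, and sequence outside these transcripts, were not checked.

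Siglece reached 1308439, 1432308, 1183469 and 1109589 counts in tumours 1 to 4. These were 30859, 41430, 30935 and 27099 CPM, a mean of 32581 ± 6165 (SD, n = 4). The gene thus ranked 1 of 28440 rows in each tumour, with tumour 2 the highest and tumour 4 the lowest. With exact binomial limits (95%) in parentheses, Siglece took 3.06% (3.05 to 3.06%), 4.07% (4.06 to 4.07%), 3.21% (3.20 to 3.21%) and 2.66% (2.65 to 2.66%) of the counts of tumours 1 to 4. Such intervals cover counting error only. The next most abundant row was Malat1, a nuclear long non-coding RNA, in tumours 1, 3 and 4, at 15912, 13450 and 14713 CPM. In tumour 2 it was Trf, which encodes transferrin, at 15212 CPM. Siglece exceeded the row below it 1.94-, 2.72-, 2.30- and 1.84-fold in tumours 1 to 4.

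**Figure D1:**
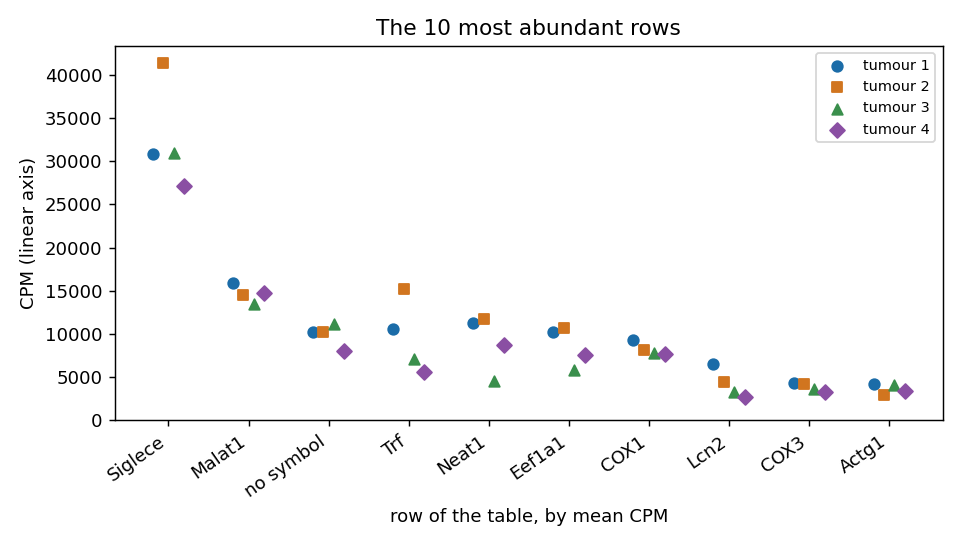
CPM (vertical axis, linear, from 0) of the 10 rows with the highest mean, with 1 symbol for each of the 4 tumours; "no symbol" is a row whose Entrez number had no match in the RefSeq table. Siglece lies between 27099 and 41430 CPM, above every other row in each tumour.

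The other 6 members together held 42.7, 38.4, 39.1 and 50.1 CPM in tumours 1 to 4, so that Siglece exceeded their sum 541- to 1080.2-fold. To compare genes, levels were divided by the length of the coding sequence. On this scale of CPM per kb of coding sequence the order of the means was Siglece, Cd33, Siglec1, Cd22, Siglech, Mag and Siglecg. Siglece stood at 23255 ± 4401 CPM per coding kb (SD, n = 4) and Cd33, the next, at 9.30 ± 3.54, a ratio of 2499.9. Neighbours in this order did not overlap between Siglece and Cd33, nor between Siglec1 (4.21 to 6.13) and Cd22 (0.607 to 1.60 CPM per coding kb). The ranges of all other neighbours overlapped: those of Cd33 (5.87 to 13.1) and Siglec1, of Cd22 and Siglech (0.348 to 2.11), of Siglech and Mag (0.185 to 0.428), and of Mag and Siglecg (0.0981 to 0.225 CPM per coding kb).

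**Figure D2:**
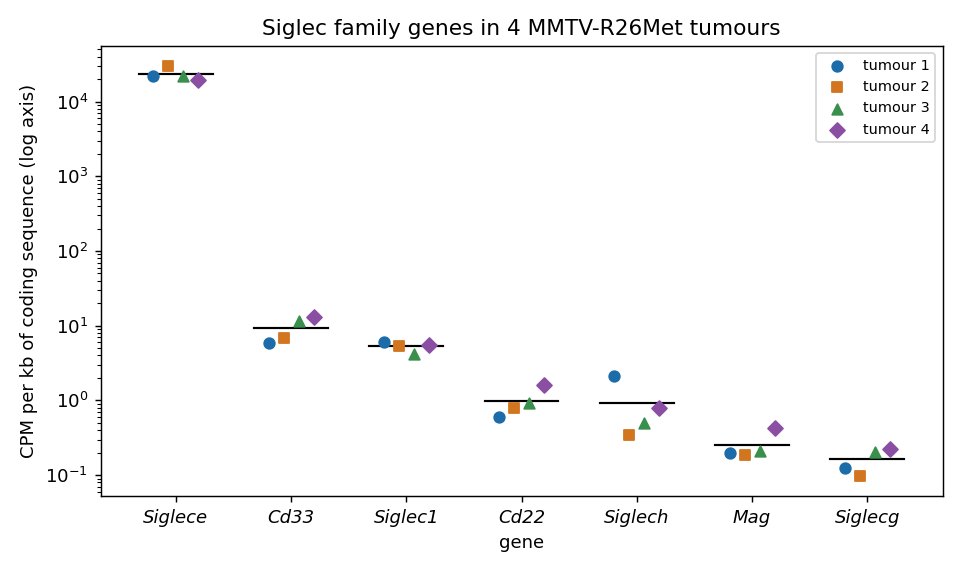
CPM per kb of coding sequence (vertical axis, log) of the 7 Siglec genes, with 1 symbol per tumour and a line at the mean of the 4 tumours. Siglece has at least 19343 CPM per coding kb in every tumour and the other 6 genes at most 13.1.

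Siglece is known as a receptor of neutrophils, monocytes and macrophages, so its level was set beside leukocyte genes. Ptprc, which encodes the pan-leukocyte surface protein CD45, had 67.4, 93.6, 78.5 and 76.0 CPM in tumours 1 to 4, so that Siglece was 458-, 443-, 394- and 357-fold higher in CPM. The monocyte and macrophage list of 15 genes, led by the lysozyme gene Lyz2, summed to 801, 1368, 964 and 1164 CPM, and Siglece alone exceeded that sum 23.3- to 38.5-fold. Neutrophil genes, 10 of 11 measured, summed to 18.7, 30.7, 105 and 59.9 CPM. Elane, Camp and Ngp were at 0 counts in at least 1 tumour. Together the 64 genes measured over the 6 leukocyte lists summed to 1345 to 2098 CPM, and Siglece exceeded that sum 14.5- to 22.9-fold. No single gene of these lists could exceed Siglece, which was chosen as the most abundant row. Both Siglece and the sum over the monocyte and macrophage list were highest in tumour 2, but Siglece was lowest in tumour 4, where that sum was the second highest. The neutrophil sum was highest in tumour 3, while S100a8, the most abundant gene of that list, was highest in tumour 4 (28.4 CPM against 25.1 in tumour 3). The part of leukocyte number in the Siglece count was not tested.

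**Figure D3:**
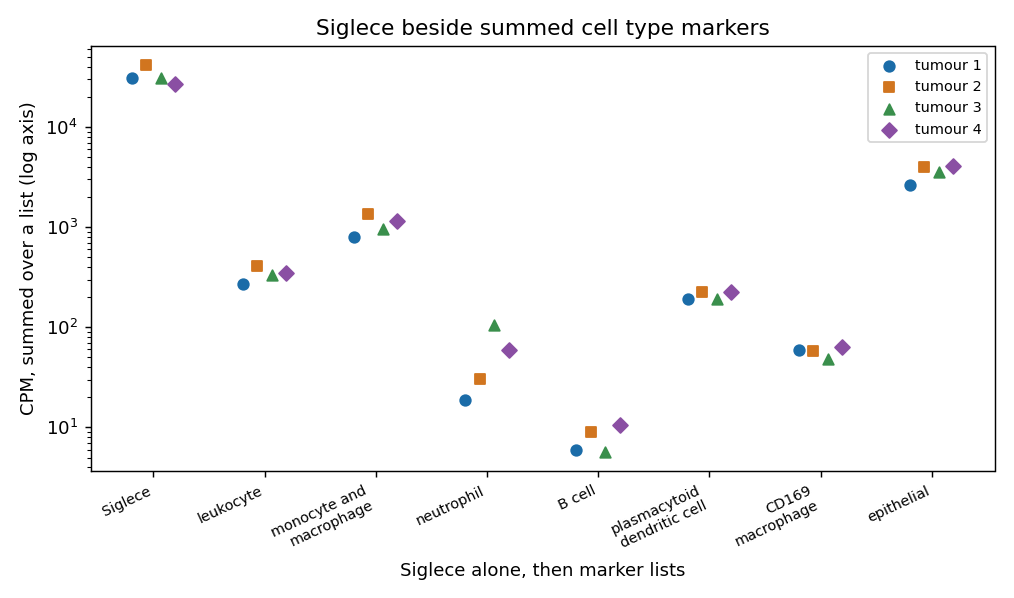
CPM (vertical axis, log) of Siglece alone and summed over 6 lists of leukocyte markers and 1 of epithelial markers, with 1 symbol per tumour. The epithelial sum, 2661 to 4124 CPM, is the highest of the lists in every tumour, and Siglece exceeds it 6.57- to 11.6-fold.

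The position of Siglece in the annotation also bears on its count. The RefSeq gene spans 23163 bases and the GENCODE M21 gene 9092 bases (chr7:43651070-43660161). The longer RefSeq span takes in the GENCODE lincRNA Gm36546, which is on the same strand, at chr7:43670841-43671314. It also overlaps genes of the opposite strand at both ends, Ceacam18 by 414 bases and Ctu1, which encodes a tRNA thiolation enzyme, by 74 bases. The sources used here do not give the annotation or whether counting used strand. Ceacam18 had 10, 8, 5 and 3 counts and Ctu1 464, 286, 278 and 395 counts in tumours 1 to 4. The 5 genes next to Siglece on the side of lower coordinates had means between 0.0126 CPM (Zfp819) and 28.8 CPM (Zfp719), and included Cd33. The 5 on the other side were 4 kallikrein genes and the long non-coding RNA 2310002F09Rik, with means from 0.00611 CPM (Klk12) to 12.9 CPM (Klk11). Siglece was thus the single row of this stretch above 28.8 CPM on average. Counts per gene do not show where within these 23163 bases the reads lay.

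**Figure D4:**
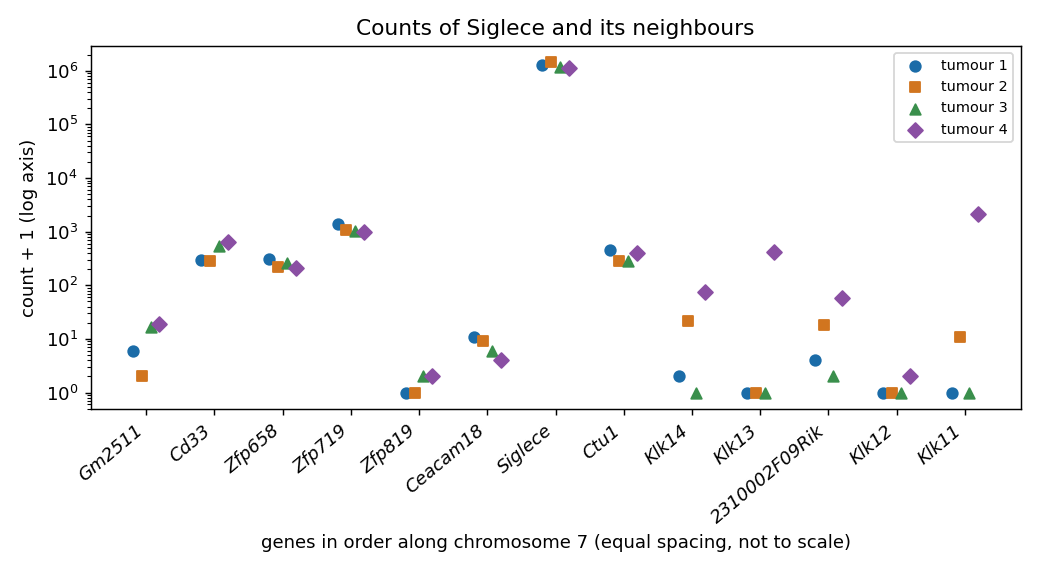
Count plus 1 (vertical axis, log) of Siglece, the 2 genes that overlap it and the 5 nearest on each side, in their order along chromosome 7 with equal spacing, with 1 symbol per tumour. Siglece has at least 1109589 counts in every tumour, while Ceacam18 and Ctu1, which overlap its ends, have at most 464 counts.

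The 1 promoter window of Siglece in the RefSeq table, 250 bases before to 50 after a transcript start (GRCm38.p6, minus strand, chr7:43660112-43660411), is shown because its base composition departs from that of other abundant genes. Capitals mark GAGGAA, the core of sites of the myeloid factor PU.1, searched on both strands and here read as TTCCTC.
Siglece promoter: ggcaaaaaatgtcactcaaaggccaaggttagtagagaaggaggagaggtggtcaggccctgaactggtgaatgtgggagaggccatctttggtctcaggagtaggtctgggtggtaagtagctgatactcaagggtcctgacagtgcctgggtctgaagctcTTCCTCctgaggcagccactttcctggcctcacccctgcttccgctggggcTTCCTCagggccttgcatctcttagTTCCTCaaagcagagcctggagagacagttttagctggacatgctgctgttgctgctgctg
The start in this window, base 43660161, is also that of the GENCODE gene and lies inside the longer RefSeq span, whose 5′ end at base 43672044 the window does not cover. The window held 3 matches, whereas 28.3% of 32851 promoter windows of this length held at least 1 and 0.685% at least 3. It held no TATAAA, which 13.6% of windows had on either strand. The window held 1 CG pair, against a median of 7 over all windows. Of the 100 most abundant rows, 74 had a promoter entry, with a median of 21.5 CG pairs (for genes with several starts, the start with the most), and 4 of these other than Siglece had 1 or none. Of the 7 members 6 had an entry, with 1 to 6 CG pairs in 9 windows. GAGGAA matched in at least 1 window of Cd33, Mag, Siglecg and Siglech and not in that of Cd22. A match of these letters is a description and not a site.

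To ask how far the tumours differed in these genes, each gene's spread between tumours was set against that of genes of like expression (edgeR, negative binomial model with no covariate, deviance tested at the dispersion trend, Benjamini-Hochberg adjusted p). Of 15808 genes tested, 574 passed, which is 3.63%. Leaving out tumour 4 lowered that number to 367. Of the 7 members 6 had enough counts to be tested and 0 passed, with 1 at an unadjusted p under 0.05 and 0 by DESeq2's rule for dispersion outliers. The highest tumour exceeded the lowest by a median of 2.28-fold over the 6 tested members, against 1.73-fold over all genes tested. Counting error widens this range at low counts, and Mag, Siglech and Cd22 had only 12 to 171 counts per tumour. The 2 medians were not matched for level. The rule that chose Siglece used its level and rank, not its spread. A p that misses the threshold does not show that the tumours were alike, and on simulated counts this test found 25% of genes raised 4-fold in 1 tumour.

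**Figure D5:**
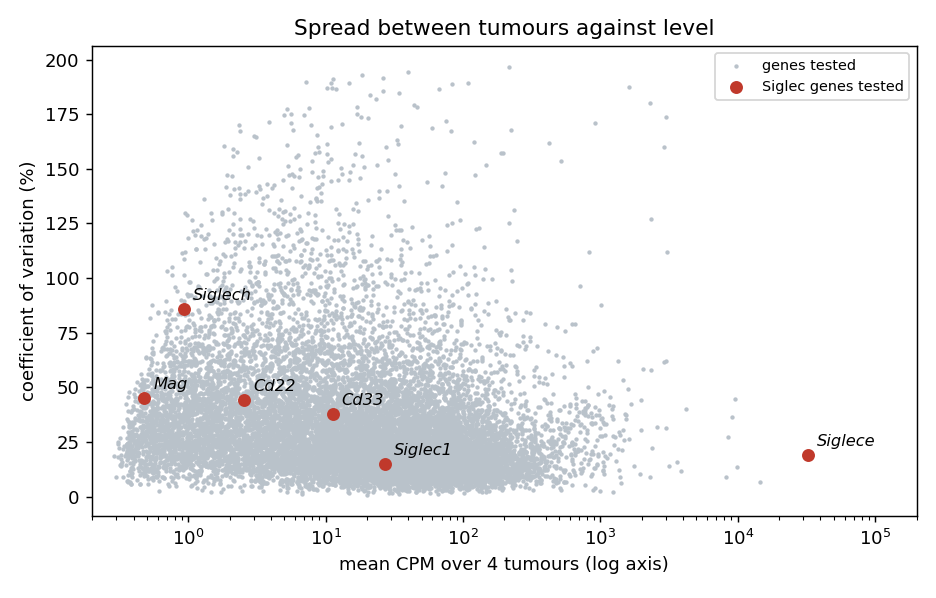
Coefficient of variation over the 4 tumours (vertical axis, percent) against mean CPM (horizontal axis, log) of the 15808 genes tested, with the 6 Siglec genes tested in red. Siglece lies at 18.9% and Siglec1 at 15.1%, below the median gene (24.3%), and Siglech lies at 85.8%.

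Among the myeloid members, Siglece itself ran 1.53-fold from tumour 4 to tumour 2, with a coefficient of variation of 18.9% (edgeR adjusted p = 0.999989). Of the 100 most abundant rows 69 varied more, and their median coefficient of variation was 28.1%. The 5 genes with at least 100 CPM whose log2 CPM, centred on their means, were nearest to those of Siglece over the 4 tumours were Cycs (cytochrome c), Ubn2, Rpl24, Srp54a and Rps29, out of 2083. Cycs had 138, 187, 142 and 120 CPM, a root-mean-square difference of 0.02 on the log2 scale. With 4 tumours and so many candidates some will lie this close in any case, and nothing is read from it.

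Cd33, a receptor of myeloid cells whose human counterpart is an inhibitory Siglec, had 301, 282, 531 and 649 counts in tumours 1 to 4. These were 7.10, 8.16, 13.9 and 15.9 CPM (11.2 ± 4.28, SD, n = 4), with tumours 3 and 4 above tumours 1 and 2 and no overlap of the counting intervals between these pairs. The 2.23-fold range did not pass (edgeR adjusted p = 0.999989). Neutrophil markers summed to more in tumours 3 and 4 too (105 and 59.9 CPM against 18.7 and 30.7), whereas the monocyte and macrophage sum was highest in tumours 2 and 4. Of 5 neutrophil markers tested 1 passed, against 3.63% over all genes tested, too few to set this list apart. It was S100a9, which did not pass without tumour 2 or 3 (edgeR adjusted p = 0.179 and 0.999953). The part of neutrophils, monocytes and macrophages in the Cd33 level was not tested.

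Siglec1 encodes CD169, a large adhesion receptor of tissue macrophages that is also induced by interferon. It had 1327, 941, 822 and 1146 counts, or 31.3, 27.2, 21.5 and 28.0 CPM (27.0 ± 4.08, SD, n = 4), highest in tumour 1 and lowest in tumour 3. Its 1.46-fold range was the narrowest of the 7 members and did not pass (edgeR adjusted p = 0.999989). Other genes of resident CD169 macrophages summed to 59.1, 58.3, 47.9 and 63.9 CPM over 7 genes, also lowest in tumour 3. Of the 4 tested 0 passed (edgeR, 0 also at an unadjusted p under 0.05), against 3.63% over all genes tested. Lyve1 led that list at 35.4 CPM on average, with 37.5, 29.2, 31.2 and 43.7 CPM, and was lowest in tumour 2. Vcam1 had 17.1, 21.4, 12.3 and 12.7 CPM, and most of the sum came from Lyve1 and Vcam1. Folr2 was also lowest in tumour 3, at 2.90 CPM, whereas Vsig4 was highest there, at 1.25 CPM (48 counts). Cd5l and Timd4 had means of 1.25 and 0.274 CPM, and Marco had 0 counts in 3 tumours and 3 in tumour 4. The part of these macrophages in the Siglec1 level was not tested. The genes with at least 5 CPM nearest to Siglec1 in pattern were Gapvd1, Zfp276, Mxi1, Ier3ip1 and Slc25a22, out of 11167, Gapvd1 at a root-mean-square difference of 0.02 on the log2 scale.

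Siglech, a marker of plasmacytoid dendritic cells in the mouse, was scarce. It had 89 counts in tumour 1 and 12, 19 and 32 in tumours 2, 3 and 4, or 2.10, 0.347, 0.497 and 0.782 CPM (0.931 ± 0.799, SD, n = 4). The 95% exact Poisson interval of tumour 1, 1.69 to 2.58 CPM, lay above those of the other 3, the nearest being 0.535 to 1.10 CPM in tumour 4. The 6.05-fold range was the widest of the members. It had an unadjusted p of 0.0379 and an edgeR adjusted p of 0.485, and so did not pass. Without tumour 1 the mean of Siglech was 0.543 CPM. Of the other plasmacytoid dendritic cell markers 1 of 6 tested passed, against 3.63% over all genes tested, a list too short to set apart. This was Ly6d, which is also an epithelial gene and was highest in tumour 2. It did not pass without tumour 2 or 3 (edgeR adjusted p = 0.422 without tumour 2). The sum over that list was 193, 224, 194 and 223 CPM, nearly equal in tumours 1 and 3. Most of it came from Tcf4, with 127, 124, 138 and 76.4 CPM, and Bst2, with 34.1, 48.8, 27.9 and 112 CPM. Irf8, also on that list, had 18.7, 21.9, 20.7 and 22.6 CPM and was lowest in tumour 1, where Siglech was highest. The part of these cells in the Siglech level was not tested. Of the scarcer genes of that list, Upb1 was highest in tumour 1 like Siglech, with 342, 247, 157 and 73 counts, and did not pass (edgeR adjusted p = 0.999989). Cox6a2 was highest in tumour 3, with 6, 2, 74 and 8 counts, and Cd209d in tumour 2, with 4, 68, 0 and 22. Ccr9 had 24, 15, 3 and 29 counts, Pacsin1 16, 26, 14 and 11, Klk1 9, 1, 0 and 5, and Spib 0, 5, 6 and 0.

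The B cell members were Cd22 and Siglecg, both inhibitors of the B cell receptor. Cd22 had 67, 72, 91 and 171 counts, or 1.58, 2.08, 2.38 and 4.18 CPM (2.55 ± 1.13, SD, n = 4). Tumour 4 was the highest, with a 95% exact Poisson interval of 3.57 to 4.85 CPM that lay above those of the other tumours, but the 2.64-fold range did not pass (edgeR adjusted p = 0.999989). Siglecg had 11, 7, 16 and 19 counts, or 0.259, 0.202, 0.418 and 0.464 CPM, with overlapping counting intervals in all tumours, and was too scarce to be tested.

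Defining B cell genes were near 0. Ms4a1, which encodes CD20, had 14, 2, 16 and 10 counts, and Cd79b, a chain of the B cell receptor, had 13 in every tumour. In counts, not divided by coding length, Cd22 was above both of these genes in all 4 tumours. The B cell list of 11 genes summed to 5.92, 8.996, 5.70 and 10.5 CPM, most of it from Ighm (mean 5.98 CPM), and was highest in tumour 4 like Cd22. The reads of Cd22 and Siglecg may be split with other genes. Of the 50-base stretches of Cd22-201 10.3% occurred in transcripts of 43 other genes, and of those of Siglecg-201 8.65% occurred in Siglecf or Gm29791, whereas none of those of Siglec1-201, Cd33-201, Siglech-205 or Mag-207 occurred elsewhere.

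Mag, the myelin-associated member of oligodendrocytes and Schwann cells, had 16, 12, 15 and 33 counts, or 0.377, 0.347, 0.392 and 0.806 CPM (0.481 ± 0.218, SD, n = 4). Tumours 1 to 3 lay close together and tumour 4 was 2.32-fold above the lowest, with overlapping counting intervals in all pairs (edgeR adjusted p = 0.999989). Of 13 myelin and Schwann cell genes, the myelin genes Mog and Mobp had 0 counts in every tumour. The list was led by Sox10, at 345 CPM on average, a factor of Schwann cells that mammary epithelium also expresses.

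Of 2 further family genes measured, both were too scarce in most tumours to be tested. Siglecf, a receptor of eosinophils, had 10, 11, 212 and 21 counts, or 0.236, 0.318, 5.54 and 0.513 CPM, and Siglec15, which pairs with the Tyrobp adaptor, 0, 0, 86 and 6 counts. Tumour 3 stood apart in both, with counting intervals above those of every other tumour, whereas none of the 7 members was highest in tumour 3.

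Genes of Siglec signalling were measured in all tumours. Ptpn6 had a mean of 32.1 CPM, Ptpn11 153 CPM, Tyrobp 36.8 CPM and Cd24a, which encodes a sialylated partner of Siglecg, 401 CPM, the highest of the list. The list summed to 909, 971, 1157 and 1172 CPM in tumours 1 to 4. All 12 genes were tested for spread and 0 passed, with 0 at an unadjusted p under 0.05 (edgeR), which is near the 3.63% over all genes. Their median range was 1.66-fold, against 1.73-fold over all genes.

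The genes that make and remove sialic acid ligands were read against the 3.63% of all tested genes that passed and their median range of 1.73-fold. Of 8 sialic acid supply genes, led by Cmas (mean 157 CPM), 0 passed, and of 3 tested sialidases 0 passed, in both cases with 0 at an unadjusted p under 0.05 (edgeR), counts that do not set these short lists apart from all genes. Neu1 was the most abundant sialidase at 56.9 CPM. Of 20 sialyltransferases 14 were tested and 4 passed, with a median range of 3.73-fold. St6gal1, which makes the alpha-2,6 linkage bound by Cd22, had 72.6, 77.5, 550 and 208 CPM in tumours 1 to 4 (edgeR adjusted p = 0.000986). The other 3 were St6galnac1, highest in tumour 2 at 12.3 CPM, St6galnac2, lowest in tumour 4 at 15.9 CPM against 142 to 200 CPM, and St8sia6, highest in tumours 1 and 3 at 102 and 162 CPM. Each of the 4 lost its call without at least 1 tumour. St6gal1 did not pass without tumour 2 or 3 (edgeR adjusted p = 0.0665 and 0.340), St6galnac1 without tumour 2 or 4 (0.393 and 0.260), St6galnac2 without tumour 4 (0.999988) and St8sia6 without tumour 2 or 3 (0.298 and 0.0921). Without tumour 1 St6galnac1 failed the count filter and was not tested. St6gal1 was highest in tumour 3, and Cd22 in tumour 4.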

How the data were processed

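RNA of 4 MMTV-R26Met mammary tumours (1 group) was measured. The authors deposited whole-number counts per Entrez gene without normalization, which sum to different totals per library. The submitters' processing notes name FastQC and the builds GRCm38 and mm10. The sources used here do not give the aligner, counting program, annotation or strand setting. Of 28440 rows, 24480 (86.1%), with 97.9% of the counts, had a symbol in the RefSeq table of GRCm38.p6, and columns of per-sample values not used numbered 0.

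The model was fitted in R 4.3.3 with edgeR 4.0.16. Low genes were removed by filterByExpr (1 group, count of 10, total of 15) and scaled by TMM. Each gene's deviance at the trended dispersion was compared with the chi-square distribution, adjusted by Benjamini-Hochberg (threshold 0.05). No contrast exists, so no quasi-likelihood test was made. On simulated counts 25% of 48 genes raised 4-fold in 1 library were found, and 98% of 49 raised 32-fold, with 15808 genes simulated. DESeq2 1.42.0 gave dispersion outliers. Coding lengths and transcript sequences are from GENCODE M21, since protein lengths, as first planned, were not used here. Low counts have 95% exact Poisson intervals.

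The members and lists were chosen with earlier results of these data known. Described were the members, each list's most abundant member and those past the test, genes overlapping Siglece and the 5 nearest on each side, the 5 genes nearest in pattern to Siglece and to Siglec1, and the most abundant rows. Other list members named as examples were chosen after their values were seen. Results for some list members, including 1 past the test, are not reported here. List symbols matched in 130 of 133 cases.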

Additional observations from a re-analysis of the deposited data

Results flagged for a closer look

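In 22 sets of 4 tumour values (the 7 members, Siglecf, Siglec15 and the 13 list sums), 4 had 1 tumour far from the others by Dixon's criterion, which chance meets in about 1 of 20 sets. Mag stood out in tumour 4, at 0.806 CPM (33 counts) against 0.347 to 0.392 CPM in the others, where the counting intervals of all tumours overlapped. Siglecf stood out in tumour 3 at 5.54 CPM and Siglec15 at 2.25 CPM. Their sum, 7.79 CPM in tumour 3 against at most 0.659 CPM elsewhere, is not a separate observation.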

How the results depend on the processing

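Alternatives were RLE scaling, unscaled library sizes, a minimum mean of 5 CPM, testing with no count filter, Holm adjustment, DESeq2 dispersion outliers, the table without Siglece, and leaving out each tumour, 11 settings in all. In the 6 settings that rescaled levels or left out a tumour, the mean of Siglece ran from 29789 to 34581 CPM, both ends from leaving out a tumour. Its rank of 1 within each library could not change in these settings, since each library is divided by 1 number. The number of members past the test of spread was 0 in all 11 settings. Siglech came nearest, with edgeR adjusted p from 0.305 (without tumour 4) to 1. Its level rested on tumour 1, without which the mean was 0.543 CPM in place of 0.931. The number of genes past the test moved from 574 to 895 with no count filter, 198 with Holm adjustment and 91 by DESeq2's rule, and ran from 367 (without tumour 4) to 417 without 1 tumour. Without a filter Siglecg could be tested and did not pass (edgeR adjusted p = 0.999986). For the 6 listed genes described as past the test, the same settings were added after seeing the data. St6galnac2 lost its call without tumour 4, and the other 5 genes without more than 1 of the tumours in turn. With Holm adjustment 0 of these 6 passed. With no count filter S100a9 and Ly6d did not pass (edgeR adjusted p = 0.0524 and 0.113), with a minimum mean of 5 CPM S100a9 and Ly6d did not (0.0516 and 0.121), and with unscaled library sizes Ly6d did not (0.0612). St6galnac1 fell below the minimum mean of 5 CPM and failed the count filter without tumour 1, so it was not tested in either setting. No paired analysis was possible because the samples form 1 group. Depth limits Siglecg, Mag, Siglech and Cd22 most, at 7 to 171 counts per tumour.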

Other observations

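Of the kallikrein genes beside Siglece, which encode secreted serine proteases, Klk11 had 0, 10, 0 and 2104 counts and Klk13 0, 0, 0 and 418 counts in tumours 1 to 4, and Klk14 1, 21, 0 and 73 counts. Siglece was lowest in tumour 4, where these 3 were highest, but its spread did not pass. A relation between them would rest on 1 tumour and was not tested. The 3 kallikrein genes failed the count filter and were not tested, and they were described because of their position next to Siglece.

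The third most abundant row of the table had no symbol in the RefSeq table. It held 433639, 351670, 425057 and 328026 counts, a mean of 9880.3 ± 1318 CPM (SD, n = 4), and its identity is not given here.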
